A study of Mus musculus with 3 samples.

Results

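L929 is a mouse fibroblast line from connective tissue, and RNA of its control cells was counted by CBTi-seq and by a 3' end method. The comparison held the 10 control columns of the CBTi-seq table (of 20 columns) and all 8 of the 3' library labelled control (of 16 columns in 2 libraries). Genes present in both tables were compared, which left 20186 genes. The CBTi-seq sample held control columns and knock columns side by side, the knock being a knockdown of Rrm2, and the 3' libraries labelled control and knock were separate samples. No other allele, agent, dose or time is given for any group, the labels name no clone, and how Rrm2 was lowered was not given in the sources used here. Per the labels' protocols, single trypsin-detached cells were drawn into a capillary and released into lysis buffer, primed with oligo dT, and amplified by PCR after a template switch. The same text stands with every sample, and the sources used here do not say what set the 3' libraries apart in the laboratory.

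The series asked how lowered Rrm2 appears under each method, and the control columns give the baseline from which either method starts. Each method had 1 control sample, its columns are not replicates, and no difference here has a replicate check or a p-value. The CBTi-seq control columns held 41570 to 846819 counts (3861881 in all), and those of the 3' library labelled control 399393 to 2496457 (7067278 in all). The columns of a method were added up and scaled by their total (CPM). Intervals are exact 95% intervals of these sums and cover counting error only. A gene with no count in 1 method was set at 3 counts there, which is 0.777 CPM in CBTi-seq and 0.424 CPM in the 3' library labelled control. Log2 ratios are CBTi-seq CPM over 3' CPM. Levels are not scaled by transcript length, so where genes are ranked or summed, the order is one of counts scaled by the total only. The columns carry names and no cell barcodes, and whether each stands for 1 cell is not stated for either table, so shared cells were not examined.

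Fibroblasts are the matrix-building cells of connective tissue, and they secrete collagens, matricellular proteins and growth factors while keeping a contractile actin and vimentin skeleton. A growing line also spends much of its RNA on ribosomes, mitochondria, protein folding and the cell cycle. Methods that read 1 end of each transcript give a count that depends on whether that end can be assigned to a single gene. Genes nested in other genes, and processed pseudogenes that are copies of spliced mRNAs, are the usual places where such assignment is ambiguous.

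Rrm2, the gene the series targeted, was far higher in the CBTi-seq control columns than in the 3' library labelled control. It encodes the regulatory small subunit of ribonucleotide reductase, which makes deoxynucleotides for DNA synthesis (chr12:24708241-24714146, plus strand, protein coding, GRCm38), and no exonic base of it lies inside another gene. Its columns ran from 356.1 over a median of 471.3 to 652.2 CPM in CBTi-seq, and from 29.2 over 38.8 to 49.6 CPM in the 3' library labelled control. The columns of the methods did not overlap. Summed, Rrm2 was at 481 CPM (459.2 to 503.2) in CBTi-seq and 39.1 CPM (34.6 to 43.9) in the 3' library labelled control, a log2 ratio of 3.62 (3.44 to 3.81), or 12.3-fold. The knock-named CBTi-seq columns were at 350.1 CPM, lower than the CBTi-seq control columns, while the 3' library labelled knock was at 148.1 CPM, higher than the library labelled control. The 3' labels thus go against the targeted gene, so that library is called by its label throughout. The large subunit gene Rrm1 was at 146.8 CPM in CBTi-seq and 23.9 CPM in the 3' library labelled control. Rrm2b, the p53-inducible small subunit, had the opposite order, with 23.6 CPM in CBTi-seq and 160.5 CPM in the 3' library labelled control (log2 ratio -2.77).

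Both methods showed fibroblast RNA, beside lower sums for markers of other cell types, many of which have no CBTi-seq row. Of 21 fibroblast markers, 17 stood in both tables, and 14 reached 20 CPM in CBTi-seq against 7 in the 3' library labelled control. Their summed level was 3160 to 4837 CPM over the CBTi-seq columns (median 3824) and 2023 to 2340 CPM over the 3' columns (median 2169). Vim, the vimentin intermediate filament, had 656.6, 1173 and 1756 CPM as lowest, median and highest CBTi-seq column, and 530.8, 634.5 and 678.2 CPM in the 3' library labelled control. Sparc, a matricellular glycoprotein, had 412.6, 636.8 and 770.1 CPM in CBTi-seq, and 936.6, 996.3 and 1116 CPM in the 3' library labelled control, so its columns did not overlap and CBTi-seq was lower. For the collagen chaperone Serpinh1 the order was the other way, with 288.7, 514.8 and 642.8 CPM in CBTi-seq and 88.9, 97.6 and 146.6 CPM in the 3' library labelled control. Col1a1, the alpha 1 chain of type I collagen, was at 78.5 CPM in CBTi-seq and 41.7 CPM in the 3' library labelled control. Its partner chain Col1a2 was at 101 CPM in CBTi-seq and 3.82 CPM in the 3' library labelled control. Some markers had counts by 1 method only. The metalloproteinase inhibitor Timp1, which has exonic bases inside another gene, had 373 counts in CBTi-seq and 0 in the 3' library labelled control. Fstl1 had 0 counts in CBTi-seq and 43 in the 3' library labelled control. Fap, which marks activated fibroblasts, has no CBTi-seq row and 0 counts in the 3' library labelled control. Summed epithelial markers in both tables reached at most 14.5 CPM in a CBTi-seq column and 50.1 CPM in a 3' column. There, Esrp1, an epithelial splicing regulator, had 1 count in CBTi-seq and 241 in the 3' library labelled control, while the keratins Krt8 and Krt19 had 5 and 6 counts in CBTi-seq and 0 in the 3' library labelled control. Cdh1, the epithelial cadherin, has no CBTi-seq row and held 188 CPM in the 3' library labelled control. Of endothelial, leukocyte, neural and hepatocyte markers, 1 of 8, 3 of 10, 2 of 8 and 1 of 5 stood in both tables, and these summed to at most 27.5 CPM in any column of either method. Among those without a CBTi-seq row, the 3' library labelled control held the neural genes Syt1 at 37.5 CPM and Rbfox3 at 5.09 CPM, the endothelial genes Pecam1 at 17.97 CPM and Tek at 13.2 CPM, and the macrophage gene Adgre1 at 9.48 CPM. In both tables, erythroid markers summed to at most 72.2 CPM in a CBTi-seq column and 0 in the 3' columns. Adipocyte markers summed to 96.2 to 682.4 CPM in CBTi-seq and 110.7 to 166.3 CPM in the 3' library labelled control. They were led by Fabp4, a fatty acid binding protein, with 370.5 CPM in CBTi-seq and 132.3 CPM in the 3' library labelled control, and by the adipogenic receptor Pparg with 105 CPM and 10.3 CPM. Adipoq and Lep, hormones that define fat cells, have no CBTi-seq row and 0 counts in the 3' library labelled control. Muscle markers summed to 21.4 to 83.3 CPM in CBTi-seq and 14.0 to 34.1 CPM in the 3' library labelled control, mostly from the filament gene Des, and the defining factors Myod1 and Myog have no CBTi-seq row and 0 counts in the 3' library labelled control. The part of other cell types in the differences between methods was not tested.

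How closely the levels of the methods followed each other across genes depended on the level limit. With a mean of at least 50 CPM over the methods, 4086 genes were compared, and across these genes Spearman's rho was 0.225 and Pearson's r of the log2 levels 0.152, given as a description since genes are not independent replicates. With no level limit, over the 12317 genes with at least 1 count by both methods, rho was 0.652 and r 0.644. Those genes have a wider range of levels, and genes with no count by 1 method, which the 50 CPM set keeps, are left out. In the 50 CPM set the median log2 ratio was 1.19, with quartiles at -0.005 and 2.34, and 1370 genes (33.5%) were within 2-fold. CBTi-seq was at least 4-fold higher for 1264 genes (30.9%) and at least 4-fold lower for 221 (5.41%). The sign of the typical gene depended on scaling. With each scaling the 50 CPM limit was applied to the rescaled levels, so the genes compared changed as well. TMM factors lower every log2 ratio by 1.21, and with them the split was 338 higher and 670 lower and the median -0.39. Median-of-ratios factors gave 318 higher and 688 lower genes. The medians of gene groups are therefore set against the median of all genes.

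**Figure D1:**
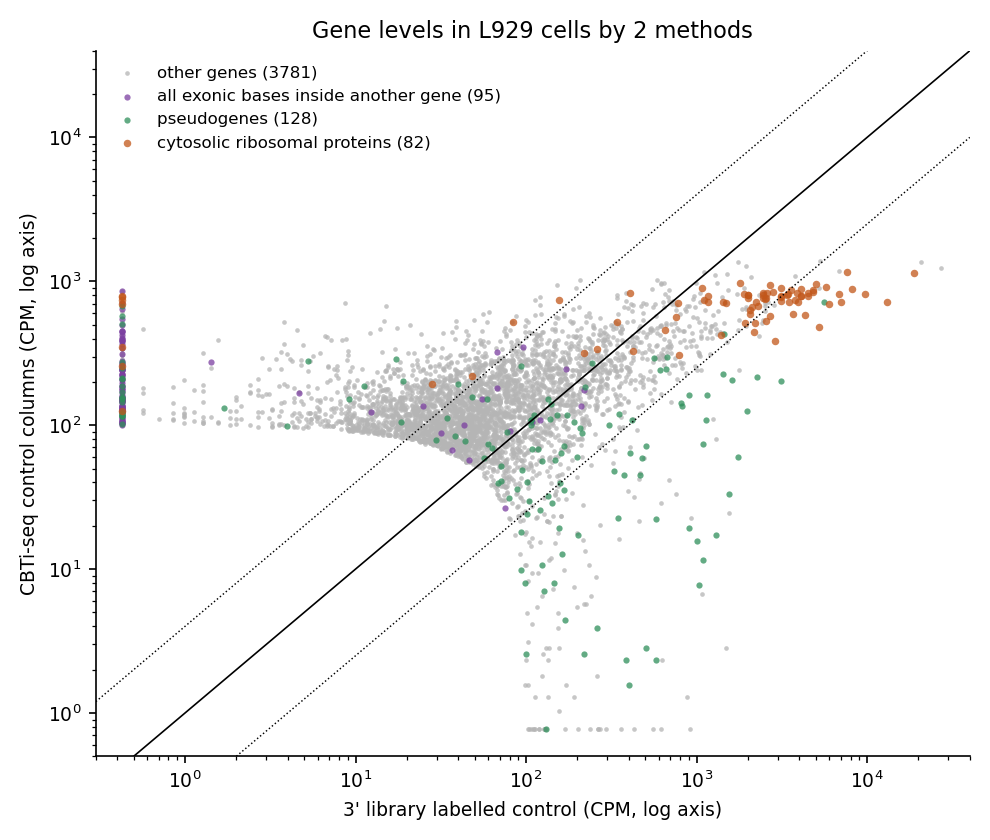
Each point is a gene with a mean of at least 50 CPM, with its level in the 3' library labelled control on the x axis and in the CBTi-seq control columns on the y axis, both in CPM on log axes; genes with no count stand at the 3-count floor. The solid line marks equal levels and the dotted lines 4-fold differences. Ribosomal proteins and pseudogenes lie mostly below the line, genes wholly inside another gene stack at the 3' floor, and the CBTi-seq levels end at 1380 CPM while the 3' levels go on to 27038 CPM.

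The genes with the most counts differed between the methods mainly in how far they stood above the rest. In CBTi-seq the highest was mt-Rnr2, the mitochondrial large ribosomal RNA, at 1380 CPM against 5308 CPM in the 3' library labelled control. The gene mt-Nd1, a complex I subunit encoded in the mitochondrial genome, was at 1359 CPM in CBTi-seq and 1752 CPM in the 3' library labelled control. Fth1, the heavy chain of the iron store ferritin, was at 1352 CPM in CBTi-seq and 20829 CPM in the 3' library labelled control, a log2 ratio of -3.95, whereas its light chain Ftl1 was at 1155 CPM and 1110 CPM. Every CBTi-seq column of Fth1, between 735.7 and 5533 CPM, sat below the 3' columns, between 20345 and 22151 CPM. Actb, cytoskeletal beta actin, was at 1270 CPM in CBTi-seq and 1953 CPM in the 3' library labelled control, and Hspa5, the main chaperone of the endoplasmic reticulum, at 1179 CPM and 6848 CPM. The nuclear noncoding RNA Malat1 was closer, with 1115 CPM in CBTi-seq and 1502 CPM in the 3' library labelled control. An unnamed gene model, CT010467.1, had 1235 CPM in CBTi-seq and 27038 CPM in the 3' library labelled control, the highest level there.

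The highest count of any gene in any CBTi-seq control column was 623, although the column totals spanned 20.4-fold. The highest count of a column lay between 399 and 623 in CBTi-seq and between 10578 and 67257 in the 3' library labelled control. Fth1 had 230 counts in the shallowest CBTi-seq column and 623 in the deepest, a 2.71-fold span, so its CPM was 5533 in the shallowest and 736 in the deepest. Rplp0, a stalk protein of the large ribosomal subunit, spanned 3.03-fold and Actb 2.22-fold between the same columns. Genes of middle level followed the totals more closely. Rrm2 spanned 16.9-fold and Lmna, which encodes the nuclear lamins A and C, 28-fold. In the 3' library labelled control the totals spanned 6.25-fold, Fth1 5.75-fold and Rrm2 6.18-fold. The median share of counts in the 20 highest genes of a column was 2.69% in CBTi-seq (1.35% to 8.02%) and 18.1% in the 3' library labelled control (17.3% to 18.8%). Among genes with no exonic base inside another gene, those at 50 to 100 CPM in the 3' library labelled control had a median CBTi-seq level of 94.6 CPM. Those at 500 to 1000 CPM had a median of 353 CPM, and those at 2000 to 5000 CPM a median of 767 CPM. The same 10 columns thus gave higher values than the 3' method at the low end and lower values at the high end. With CBTi-seq counts corrected for collisions among as many molecular identifiers as 5 bases allow, 1166 genes were at least 4-fold higher and 222 lower, and the length of the identifiers was not given in the sources used here.

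**Figure D2:**
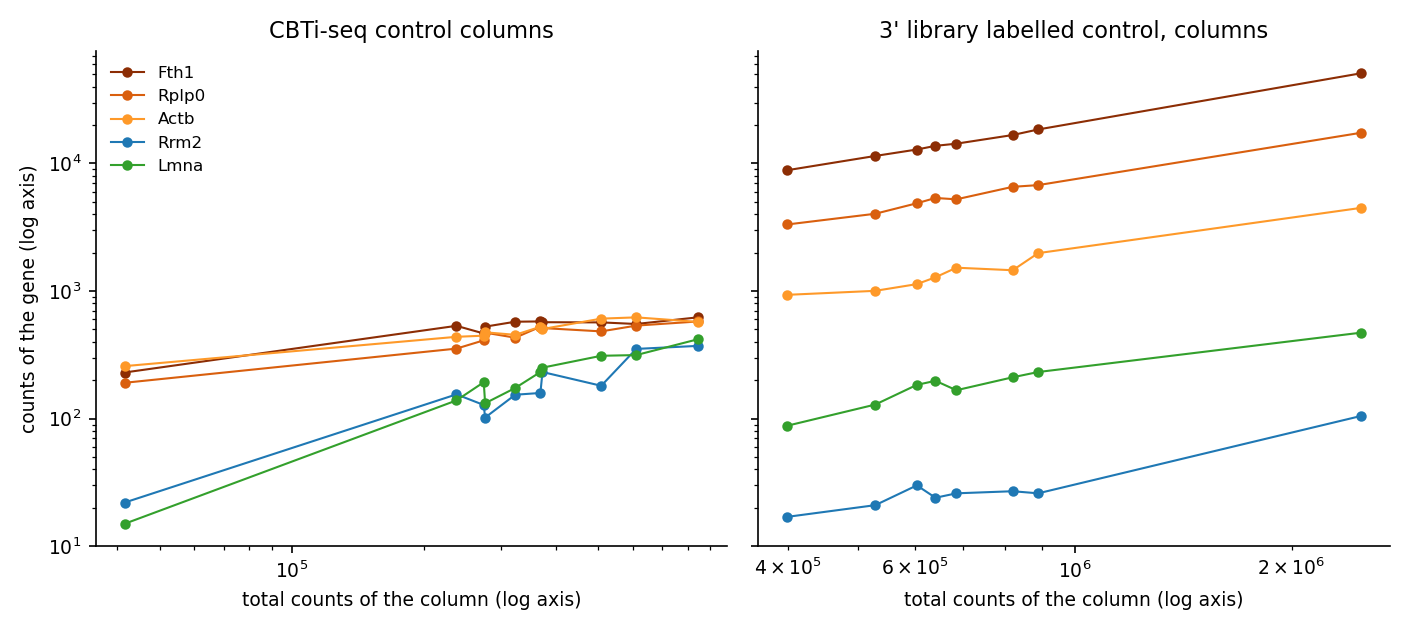
Counts of Fth1, Rplp0, Actb, Rrm2 and Lmna are plotted against the total count of each column, on log axes, for the 10 CBTi-seq control columns (left) and the 8 of the 3' library labelled control (right). In CBTi-seq the counts of Fth1, Rplp0 and Actb flatten below 623 while Rrm2 and Lmna climb with the total; in the 3' library all 5 genes climb with the total.

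Gene groups were compared through 31 lists, over the members with a mean of at least 20 CPM. Among all 7604 genes at that level the median log2 ratio was 1.46, 2877 genes (37.8%) were at least 4-fold higher in CBTi-seq and 390 (5.13%) at least 4-fold lower. The list medians ran from -1.73 for cytosolic ribosomal proteins to 3.30 for G2 and mitosis genes, leaving aside replication-dependent histones, of which 1 gene reached the level. Since TMM scaling lowers each of them by 1.21, 8 list medians above 0 turn below 0 with it and 18 stay above. The lists also differed in level. The median 3' level was 2448 CPM for cytosolic ribosomal proteins, 389 CPM for nuclear-encoded oxidative phosphorylation, 15.7 CPM for cholesterol synthesis and 13.4 CPM for G2 and mitosis. The order by level was not strict, with 114 CPM for mitochondrially encoded genes (median ratio 2.36) and 79.3 CPM for snoRNA hosts (-0.34). Lists were not compared at like levels. List medians between the knock-labelled columns are given as they stand. The median of all genes at 50 CPM or more was 0.79 there, against 1.19 between the control columns. That is not a like baseline for the lists, whose members were chosen at a mean of 20 CPM or more in the control columns. At that limit the median of all genes between the control columns was 1.46, and none is given for the knock-labelled columns.

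**Figure D3:**
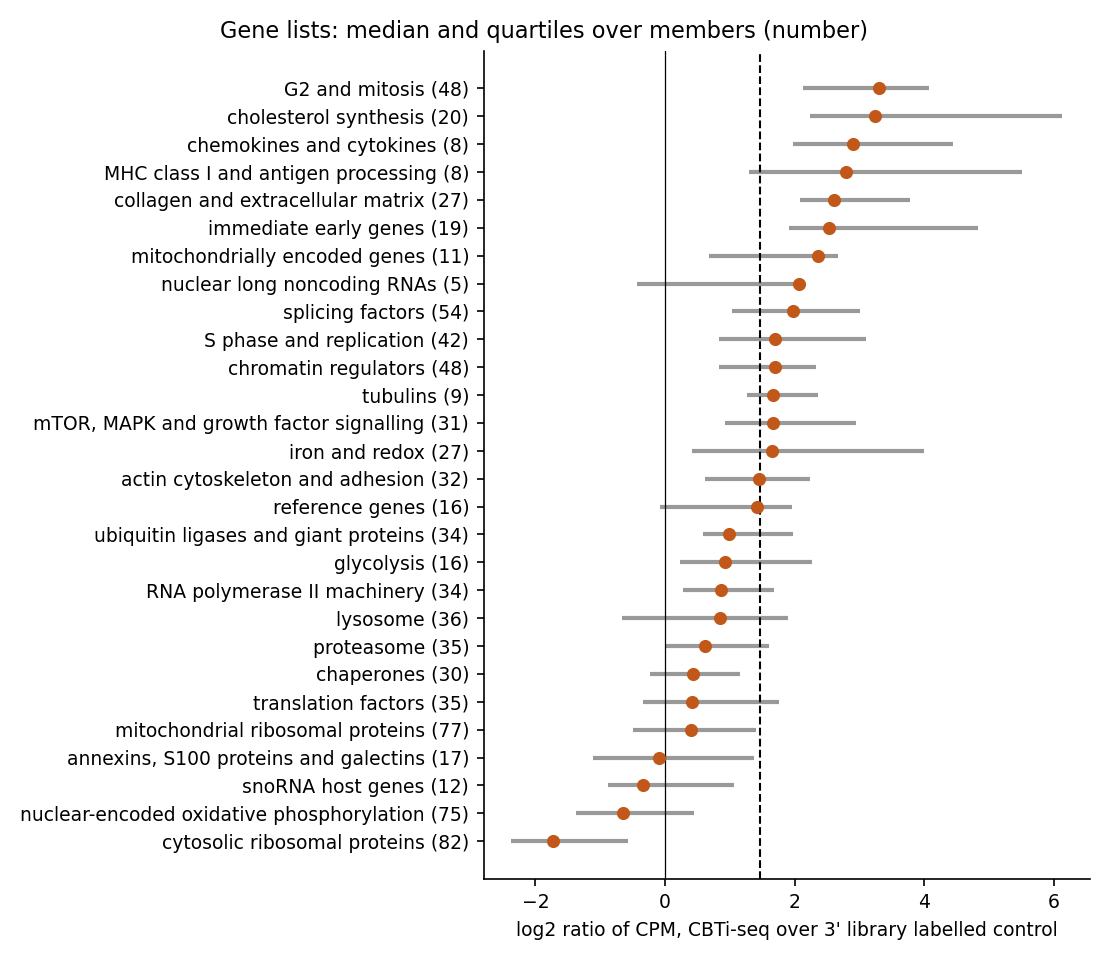
For each gene list with its number of measured members, the point is the median log2 ratio of CBTi-seq over the 3' library labelled control and the bar spans the quartiles; the dashed line is the median of all 7604 genes, 1.46. Cytosolic ribosomal proteins lie lowest at -1.73, and cholesterol synthesis (3.24) and G2 and mitosis genes (3.30) lie highest.

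Cytosolic ribosomal protein genes, which encode the structural proteins of the ribosome, had the lowest median of the lists with several members. Over 82 members it was -1.73, or 3.19 below all genes, with 34 members at least 4-fold lower in CBTi-seq (41.5%) and 11 at least 4-fold higher (13.4%). They held 5.67% of the CBTi-seq counts and 23.9% of the counts of the 3' library labelled control. Rpl41, the smallest ribosomal protein, had 687.3, 1381 and 3464 CPM as lowest, median and highest CBTi-seq column, against 17959, 19123 and 19710 CPM in the 3' library labelled control (log2 ratio of the sums -4.04). The small subunit protein Rps15 was at 715 CPM in CBTi-seq and 7015 CPM in the 3' library labelled control. The columns of the methods did not overlap for either gene. The 11 members on the other side include 7 with no 3' count at all, among them Rps27rt, Rpl24, Rps10, Rpl35a, Rpl13 and Rpl35. Rpl35 had 537.3, 876.4 and 1111 CPM as lowest, median and highest CBTi-seq column, and Rpl13 had 540.8, 895.3 and 1299 CPM. Over the 40 members with no exonic base inside another gene, the median was -1.94. With the 3' library labelled knock and the CBTi-seq knock columns the median was -1.17.

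Other translation genes were closer between the methods. Mitochondrial ribosomal proteins, which build the separate ribosome of the organelle, had a median of 0.40 over 77 members, 1.06 below all genes, with 17 members at least 4-fold higher and 0 lower. Translation factors had a median of 0.42 over 35 members, with 7 at least 4-fold higher and 1 lower. The lower member was Eif1, which helps select the start codon, at 809 CPM in CBTi-seq and 3310 CPM in the 3' library labelled control. Eef1a1, which delivers aminoacyl-tRNA to the ribosome, had 690.8, 1270 and 3079 CPM as lowest, median and highest CBTi-seq column and 1097, 1269 and 1355 CPM in the 3' library labelled control, so its columns overlapped. Eif2s2, the beta subunit of initiation factor eIF2, was at 548 CPM in CBTi-seq with no 3' count, and all its exonic bases lie inside another gene.

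Processed pseudogenes nearly identical to their parent carried large parts of some 3' totals. To show how alike such genes are, 5 parents are printed with the copy discussed for each, over the same 90 bases of the coding sequence, 5' to 3', from the annotated GENCODE vM21 transcripts (GRCm38). Capitals mark the base at which a pair differs within the stretch, and the Gapdh pair has none.
Gapdh: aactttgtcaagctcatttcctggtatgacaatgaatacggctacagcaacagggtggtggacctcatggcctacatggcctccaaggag
Gm7336: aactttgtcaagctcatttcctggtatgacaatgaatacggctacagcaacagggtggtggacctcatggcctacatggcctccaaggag
Rpl35a: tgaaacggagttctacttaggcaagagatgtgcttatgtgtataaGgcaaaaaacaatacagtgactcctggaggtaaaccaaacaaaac
Rpl35a-ps2: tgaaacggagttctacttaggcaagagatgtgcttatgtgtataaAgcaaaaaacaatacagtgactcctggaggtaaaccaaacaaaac
Rps3a1: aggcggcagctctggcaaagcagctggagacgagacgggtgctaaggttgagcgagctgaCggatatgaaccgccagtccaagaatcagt
Rps3a3: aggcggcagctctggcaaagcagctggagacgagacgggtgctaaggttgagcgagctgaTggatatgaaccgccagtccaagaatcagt
Rpl21: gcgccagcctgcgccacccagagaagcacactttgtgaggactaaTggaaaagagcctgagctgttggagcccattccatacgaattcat
Gm10240: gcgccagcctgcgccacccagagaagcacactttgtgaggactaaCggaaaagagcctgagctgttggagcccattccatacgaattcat
Rpl26: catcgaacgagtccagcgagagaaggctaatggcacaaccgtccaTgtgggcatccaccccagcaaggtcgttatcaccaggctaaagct
Gm15772: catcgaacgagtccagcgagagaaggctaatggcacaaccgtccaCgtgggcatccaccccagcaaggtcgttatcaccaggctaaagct
Over the whole aligned coding part, Gapdh and Gm7336 differed at 0 of 1017 bases, Rpl35a and Rpl35a-ps2 at 1 of 330, Rps3a1 and Rps3a3 at 8 of 791, Rpl21 and Gm10240 at 2 of 480, and Rpl26 and Gm15772 at 2 of 435.

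Gapdh, the glycolytic enzyme glyceraldehyde-3-phosphate dehydrogenase (chr6:125161715-125166467, minus strand), was at 1015 CPM in CBTi-seq and 206 CPM in the 3' library labelled control. Its 37 copies together had 712 CPM in CBTi-seq and 1081 CPM in the 3' library labelled control. The single-exon copy Gm7336 (chr7:51746647-51747878, plus strand) alone had 2.33 CPM in CBTi-seq and 581 CPM in the 3' library labelled control. Summed over parent and copies, the family was at 1727 CPM in CBTi-seq and 1287 CPM in the 3' library labelled control, a log2 ratio of 0.42 (0.38 to 0.47), where Gapdh alone gave 2.30. Rpl35a (chr16:33056453-33060189, plus strand), of the large ribosomal subunit, has all its exonic bases inside the gene model Gm17106. Of 215 genes so placed at 50 CPM or more in CBTi-seq, 194 had no 3' count. Rpl35a had none either, while its copies had many, and the part of the copies in this was not tested. It was at 700 CPM in CBTi-seq and 0 in the 3' library labelled control, while Rpl35a-ps2 (chr1:181241988-181242320, minus strand) was at 19.4 CPM and 904 CPM, and the family of 9 copies and parent at 803 CPM and 1046 CPM (log2 ratio -0.38, -0.44 to -0.32). Rpl21 (chr5:146832890-146837032, plus strand) was at 741 CPM in CBTi-seq and 156 CPM in the 3' library labelled control. Its copy Gm10240 (chr15:68309819-68310301, plus strand) was at 17.3 CPM and 1301 CPM, and the family ratio was -0.81 on the log2 scale. For Rpl26 (chr11:68901583-68906989, plus strand) the copy led by both methods, since Gm15772 (chr5:3236431-3236868, plus strand) had 714 CPM in CBTi-seq and 5607 CPM in the 3' library labelled control, against 316 CPM and 220 CPM for Rpl26 itself. Rps3a3 (chr13:108670603-108671397, plus strand), a copy of Rps3a1 (chr3:86137940-86142702, minus strand), ran the other way, with 678 CPM in CBTi-seq and 0 in the 3' library labelled control. That copy lies inside the phosphodiesterase gene Pde4d.

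The families described were chosen after their values were seen. Over 434 parents, the median share of a family's level held by copies was 5.62% in CBTi-seq and 0.896% in the 3' library labelled control, and it was larger in the 3' library for 108 parents, 28 of them among the 68 ribosomal protein parents. Over all 106 copies with at least 97% identity over 90% of their length and a mean of 50 CPM, the median log2 ratio was -1.25, with 24 at least 4-fold higher and 43 lower in CBTi-seq, and with a limit of 20 CPM it turned to 0.43. The 85 copies with no exonic base inside another gene had a median of -1.95, with 6 higher and 42 lower, and all of them had 3' counts. Of the 19 copies wholly inside another gene, 18 had no 3' count. Adding copies to their parents narrowed the spread of ribosomal protein ratios, with a standard deviation over 68 parents of 3.64 for parents alone and 2.10 for families. The median ratio hardly changed, at -1.73 for parents alone and -1.69 for families. How either table divided reads that match several places was not given in the sources used here, so the values of parents and copies are uncertain one by one.

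**Figure D4:**
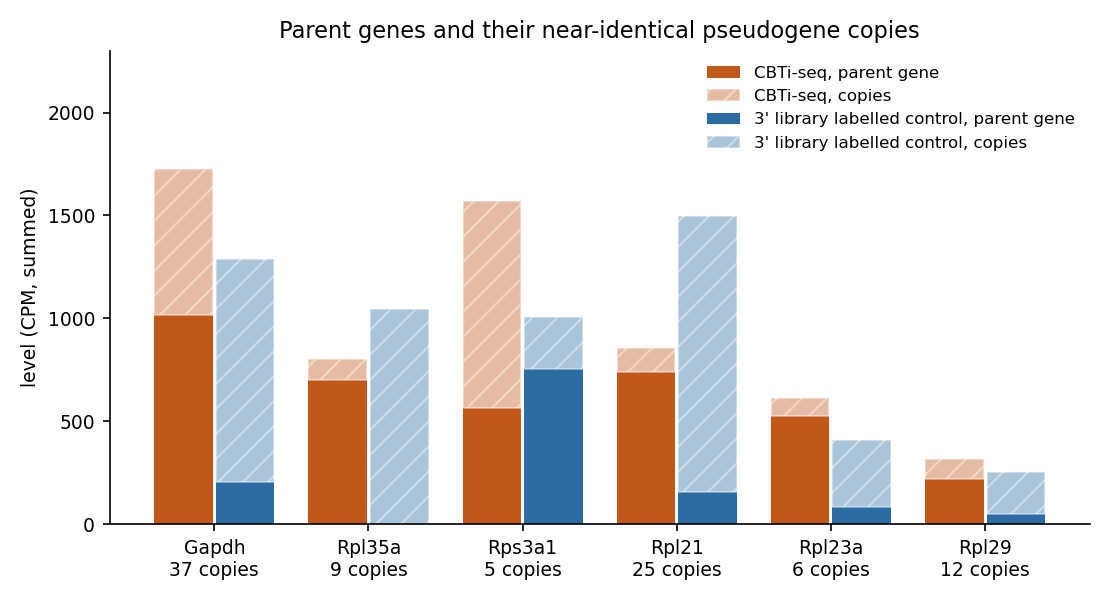
Stacked bars give the level in CPM of 6 parent genes (Gapdh, Rpl35a, Rps3a1, Rpl21, Rpl23a and Rpl29) and of their near-identical copies, all chosen after their values were seen, with CBTi-seq left and the 3' library labelled control right in each pair. Parents make up most of each CBTi-seq bar except that of Rps3a1, and copies make up most of each 3' bar except that of Rps3a1.

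Genes of oxidative phosphorylation, the respiratory chain and ATP synthase, split by genome. The nuclear-encoded subunits had a median of -0.65 over 75 members, 2.11 below all genes, with 9 at least 4-fold higher and 2 lower. The lowest were Uqcrq of complex III, at 420 CPM in CBTi-seq and 2337 CPM in the 3' library labelled control, and Ndufc1 of complex I, at 242 CPM and 1012 CPM. Subunits of the same complexes went the other way. Uqcrc1, a core protein of complex III, had 327.4, 384.3 and 517.6 CPM as lowest, median and highest CBTi-seq column and 2.50, 8.18 and 13.2 CPM in the 3' library labelled control. The catalytic ATP synthase subunits did not move together, as Atp5a1 was at 672.5 CPM in CBTi-seq and 15.0 CPM in the 3' library labelled control and Atp5b at 871 CPM and 1522 CPM. Cox4i1, of cytochrome c oxidase, was at 455 CPM in CBTi-seq with no 3' count, and all its exonic bases lie inside another gene. The mitochondrially encoded protein genes had a median of 2.36 over 11 members, 0.90 above all genes, with 6 at least 4-fold higher and 0 lower. The gene mt-Co1, the catalytic subunit of cytochrome c oxidase, was at 936 CPM in CBTi-seq and 152 CPM in the 3' library labelled control, and mt-Atp6, of ATP synthase, at 150 CPM and 6.23 CPM. Of complex I, mt-Nd5 was at 746 CPM in CBTi-seq and 113 CPM in the 3' library labelled control, and mt-Nd6, from the light strand, at 333 CPM and 114 CPM. Gm28437, a nuclear copy of mt-Co3, was at 68.1 CPM in CBTi-seq and 108 CPM in the 3' library labelled control, where mt-Co3 itself was at 57.2 CPM and 11.04 CPM.

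Protein quality control genes lay below the typical gene. Chaperones had a median of 0.43 over 30 members, with 3 at least 4-fold higher and 1, Hspa5, lower. Ppib, a peptidyl-prolyl isomerase of the secretory pathway, was at 455 CPM in CBTi-seq and 44.6 CPM in the 3' library labelled control, and Tcp1, a subunit of the cytosolic chaperonin, at 525 CPM and 82.4 CPM. The proteasome had a median of 0.62 over 35 members, with 7 at least 4-fold higher and 0 lower. Its subunits spread widely, since Psma6 had columns of 336.8 to 584.1 CPM in CBTi-seq and 517.8 to 711.1 CPM in the 3' library labelled control, and Psmb7 had 96.2 to 265.8 CPM and 3.37 to 16.6 CPM. Lysosomal genes had a median of 0.85 over 36 members, with 9 at least 4-fold higher and 0 lower. The protease cathepsin D, Ctsd, had 1186 counts in CBTi-seq and 3 in the 3' library labelled control, and 63.7% of its exonic bases lie inside another gene. Lamp1, a major membrane protein of lysosomes, was at 439 CPM in CBTi-seq and 12.2 CPM in the 3' library labelled control, whereas the tetraspanin Cd63 was at 664 CPM and 976 CPM.

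Cholesterol synthesis stood well above the typical gene and glycolysis below it. The cholesterol genes had a median of 3.24 over 20 members, 1.78 above all genes, with 15 at least 4-fold higher in CBTi-seq and 0 lower, and 2.08 between the knock-labelled columns. The sterol demethylase Cyp51 had 216.5, 464 and 572.5 CPM as lowest, median and highest CBTi-seq column, and 48.3, 75.4 and 87.6 CPM in the 3' library labelled control. Its columns did not overlap, and 3.76% of its exonic bases lie inside another gene. Lss, which closes the sterol rings, was at 143 CPM in CBTi-seq and 0.849 CPM in the 3' library labelled control, with 68.5% of its exonic bases inside another gene. Dhcr7, a late enzyme of the pathway, was at 57.7 CPM in CBTi-seq and 119 CPM in the 3' library labelled control. Glycolysis genes had a median of 0.92 over 16 members, with 5 at least 4-fold higher and 0 lower. Pgam1, phosphoglycerate mutase, was at 470.5 CPM in CBTi-seq and 17.4 CPM in the 3' library labelled control, and aldolase A, Aldoa, at 903 CPM and 1887 CPM. The glucose transporter Slc2a1 was at 204 CPM in CBTi-seq with no 3' count, and 61.3% of its exonic bases lie inside another gene. Iron and redox genes had a median of 1.66 over 27 members, with 13 at least 4-fold higher and 1, Fth1, lower. Gclm, a subunit of the enzyme that limits glutathione synthesis, was at 285 CPM in CBTi-seq and 8.91 CPM in the 3' library labelled control, and the glutathione transferase Gstp1 at 367 CPM and 3.82 CPM.

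Of the cell cycle lists, G2 and mitosis genes lay furthest above the typical gene and S phase genes close to it. G2 and mitosis genes had a median of 3.30 over 48 members, 1.84 above all genes, with 39 at least 4-fold higher in CBTi-seq and 0 lower, and all 48 had a log2 ratio above 0, from 0.44. Together they held 0.889% of the CBTi-seq counts and 0.157% of those of the 3' library labelled control. Ccna2, cyclin A2, had 123.1, 300.3 and 553.3 CPM as lowest, median and highest CBTi-seq column, and 0, 4.24 and 9.93 CPM in the 3' library labelled control. Mki67, the proliferation antigen Ki-67, had 64.9, 270 and 389.4 CPM in CBTi-seq, and 3.12, 6.77 and 10.97 CPM in the 3' library labelled control. The smallest ratio, which TMM scaling turns below 0, was that of Cks1b, which binds cyclin-dependent kinases, at 329 CPM in CBTi-seq and 242 CPM in the 3' library labelled control. Top2a, which untangles sister DNA, was at 390 CPM in CBTi-seq and 111 CPM in the 3' library labelled control, with overlapping columns of 80.7 to 700.1 CPM and 94.5 to 121.1 CPM. Over the 30 members of the G2 and mitosis list with no exonic base inside another gene the median was 3.19. Between the knock-labelled columns it was 1.42, and the 3' library labelled knock held Ccna2 at 51.7 CPM and Mki67 at 66.1 CPM, each above the library labelled control. S phase and replication genes had a median of 1.70 over 42 members, 0.24 above all genes, with 17 at least 4-fold higher and 0 lower. Uhrf1, which keeps DNA methylation through replication, was at 157 CPM in CBTi-seq and 13.3 CPM in the 3' library labelled control. Its level in the 3' library labelled knock was 148.4 CPM. Chaf1a, which loads histones onto new DNA, was at 106 CPM in CBTi-seq and 1.27 CPM in the 3' library labelled control, and the dUTPase gene Dut at 165 CPM and 206 CPM. The fraction of cycling cells and the RNA per cell cannot be told apart from summed columns.

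Matrix genes were also above the typical gene. Collagens and other matrix genes had a median of 2.60 over 27 members, 1.14 above all genes, with 20 at least 4-fold higher and 1 lower. Col4a1, of basement membrane collagen, had 134.9, 191.3 and 293.2 CPM as lowest, median and highest CBTi-seq column, and 4.41, 7.03 and 13.1 CPM in the 3' library labelled control. Spp1, the secreted phosphoprotein osteopontin, had 657.8, 1034 and 1186 CPM in CBTi-seq, and 155, 195.2 and 220.3 CPM in the 3' library labelled control. Neither set of columns overlapped. The lower member was Lgals1, the galectin, with 903 CPM in CBTi-seq and 5243 CPM in the 3' library labelled control, and Loxl1, which crosslinks elastin, was at 147 CPM and 187 CPM. Between the knock-labelled columns the median of matrix genes was 1.12. Actin and adhesion genes were at the typical gene, with a median of 1.45 over 32 members, 10 at least 4-fold higher and 0 lower. Cfl1, the actin-severing cofilin, had 3315 counts in CBTi-seq and 3 in the 3' library labelled control, with 94.8% of its exonic bases inside another gene. Actn4, an actin crosslinker, was at 340 CPM in CBTi-seq and 17.0 CPM in the 3' library labelled control, and Myl6, a myosin light chain, at 251 CPM and 822 CPM. Tubulins had a median of 1.67 over 9 members, with 4 at least 4-fold higher and 0 lower. Annexins, S100 proteins and galectins had a median of -0.09 over 17 members, 1.55 below all genes, with 3 at least 4-fold higher and 1 lower. S100a6 was at 784 CPM in CBTi-seq and 2538 CPM in the 3' library labelled control, whereas S100a4, a marker of motile fibroblasts, was at 541 CPM and 99.3 CPM.

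Regulators of transcription and RNA processing lay on both sides of the typical gene. Immediate early genes, which are switched on within minutes of a stimulus, had a median of 2.53 over 19 members, 1.07 above all genes, with 14 at least 4-fold higher and 0 lower. Egr1, an early zinc finger factor, had 84.2, 162.7 and 353.6 CPM as lowest, median and highest CBTi-seq column and 0, 2.62 and 7.86 CPM in the 3' library labelled control. Fosl1, a partner in AP-1, was at 322 CPM in CBTi-seq and 3.68 CPM in the 3' library labelled control, while Dusp1, a phosphatase of MAP kinases, was at 61.9 CPM and 38.9 CPM. Splicing factors had a median of 1.98 over 54 members, 0.52 above all genes, with 27 at least 4-fold higher and 0 lower. Srsf1, an SR protein, had 991 counts in CBTi-seq and 3 in the 3' library labelled control, though 11.1% of its exonic bases lie inside another gene. Its relative Srsf2 had 1481 counts in CBTi-seq and 0 in the 3' library labelled control, with all exonic bases inside other genes. Hnrnpa2b1, which binds pre-mRNA, was at 836 CPM in CBTi-seq and 385 CPM in the 3' library labelled control. Chromatin regulators had a median of 1.69 over 48 members, with 17 at least 4-fold higher and 2 lower. Both of the lower ones were histone methylation factors, Jarid2 at 5.70 CPM in CBTi-seq and 218 CPM in the 3' library labelled control and Nsd1 at 6.47 CPM and 125 CPM, while the remodelling ATPase Smarca5 was at 141 CPM and 4.95 CPM. Signalling genes of the mTOR, MAPK and growth factor pathways had a median of 1.66 over 31 members, with 12 at least 4-fold higher and 0 lower. The RNA polymerase II machinery had a median of 0.87 over 34 members with 7 higher and 0 lower, and ubiquitin ligases and giant proteins 0.99 over 34 with 9 higher and 1, Dmd, lower. Small lists gave 1.32 for 4 histone variants, 2.06 for 5 nuclear noncoding RNAs and -0.34 for 12 snoRNA host genes. Of replication-dependent histones, whose mRNAs carry no poly(A) tail, 8 of 67 stood in both tables, and Hist1h2bq alone reached 20 CPM on average, with 0 counts in CBTi-seq and 75.7 CPM in the 3' library labelled control.

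Secreted and immune genes gave few measured members. Chemokines and cytokines had a median of 2.91 over 8 members, 1.44 above all genes, with 6 at least 4-fold higher. With the 3' library labelled knock in place of the one labelled control, the list stood at -0.33 relative to all genes. Csf1, the macrophage growth factor, had 192.4, 546 and 796.4 CPM as lowest, median and highest CBTi-seq column and 45.2, 61.4 and 80.1 CPM in the 3' library labelled control. The chemokine Ccl2, which has exonic bases inside another gene, had 561 counts in CBTi-seq and 0 in the 3' library labelled control. Mif was at 646 CPM in CBTi-seq and 1943 CPM in the 3' library labelled control. Ccl7 was at 156 CPM in CBTi-seq and 25.6 CPM in the 3' library labelled control, and with the 3' library labelled knock in that place its log2 ratio was -2.01. Genes of class I antigen presentation had a median of 2.80 over 8 members, which was 0.90 over the 2 with no exonic base inside another gene, H2-K1 (464 CPM in CBTi-seq and 322 CPM in the 3' library labelled control) and H2-D1 (356 CPM and 146 CPM).

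Genes often used as references for normalization did not share a ratio. Their median was 1.42 over 16 members, with 4 at least 4-fold higher and 1 lower. Ppia, cyclophilin A, was at 975 CPM in CBTi-seq and 994 CPM in the 3' library labelled control (log2 ratio -0.03, -0.09 to 0.03), and its columns overlapped. Tbp, the TATA-binding protein, was at 108 CPM in CBTi-seq and 20.2 CPM in the 3' library labelled control, and the purine salvage enzyme Hprt at 192 CPM and 53.2 CPM. Rplp0, at 1164 CPM in CBTi-seq and 7576 CPM in the 3' library labelled control, and B2m, the class I light chain, at 711 CPM and 0, stood at the ends.

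B2m belongs to the genes that lie wholly inside the span of another gene, most of which had no 3' count. A span runs from a gene's first to its last base with introns. Of the 5343 genes that reached 50 CPM in CBTi-seq, 331 (6.2%) had no count in the 3' library labelled control. Among the 215 whose exonic bases all lie inside another gene, 194 had none (90.2%, 85.5 to 93.9), and among the 3050 with no such base, 8 had none (0.262%, 0.113 to 0.516). The share climbed in steps with the overlapped part, from 1.11% at up to 25% of exonic bases over 5.11% and 11.8% to 52.4% at 75% to under 100%. By strand, the share was 42 of 46 where the other gene was on the same strand, 119 of 129 where it was on the opposite strand, and 33 of 40 where it was on both. Among partly overlapped genes it was 106 of 627 (16.9%) where the last 500 transcript bases all lay inside another gene, and 10 of 1049 (0.953%) where none of them did. In the 3' library labelled knock, 193 of the 215 had no count, and 192 had none in either. How the 3' counts treated overlapping genes, and whether they used strand, was not given in the sources used here.

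**Figure D5:**
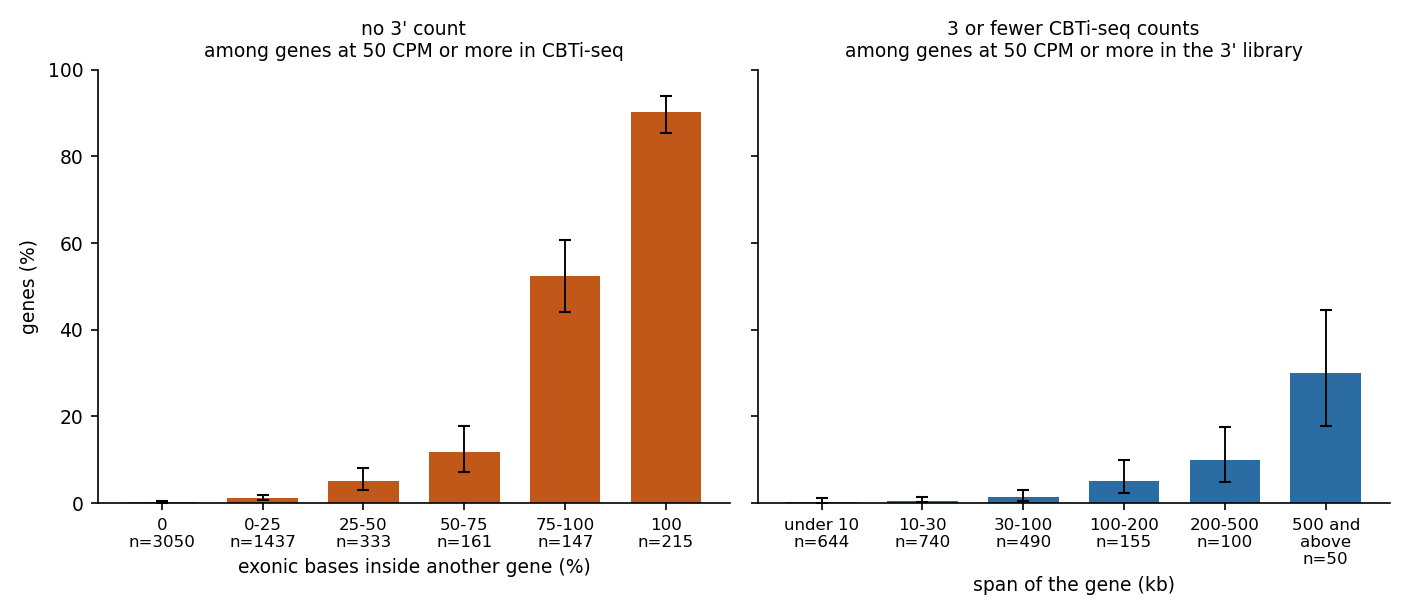
Left, the percent of genes reaching 50 CPM in CBTi-seq that have no count in the 3' library labelled control, by the percent of exonic bases inside another gene. Right, the percent of protein-coding genes at 50 CPM or more in the 3' library labelled control that have 3 CBTi-seq counts or fewer, by span in kb. Bars are exact 95% intervals. The left share climbs from 0.262% to 90.2% and the right share from 0.311% to 30.0%.

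The genes concerned, chosen for at least 50 CPM in CBTi-seq, had varied roles. B2m (chr2:122147686-122153083, plus strand) lies inside Patl2 (chr2:122120108-122186189, minus strand), and had 539.7, 757 and 1636 CPM as lowest, median and highest CBTi-seq column and 0 in every column of the 3' library labelled control. It was at least 1675-fold higher in CBTi-seq, taking 3 counts over the 3' columns together as the floor. Patl2 itself had 137 counts in the 3' library labelled control. Anxa1, an annexin of the anti-inflammatory response, lies inside the noncoding gene 1500015L24Rik, which had 10 counts in the 3' library labelled control, and had 1926 counts in CBTi-seq. Cav1, which forms caveolae, had 1413 counts in CBTi-seq, and Gm15581, around it on the other strand, had 88 counts in the 3' library labelled control. Hif1a, the oxygen-regulated factor, had 1037 counts in CBTi-seq and lies inside Gm15283, with 53 counts in the 3' library labelled control. The genes around B2m, Anxa1, Cav1 and Hif1a held fewer 3' counts than those genes held CBTi-seq counts. Fgfr2, a growth factor receptor gene whose span holds the spindle checkpoint gene Bub3, is not listed in CBTi-seq and had 2383 counts in the 3' library labelled control. Gm20388, a gene model that spans Cox4i1 and Rpl13, had 1192 counts there. Among genes with 1 to 4 counts in the 3' library labelled control, the largest ratios were those of Cfl1, Dctn5, Pakap, Arf4, Hnrnpab, Scly, Ctsd, Srsf1, Rrp7a and Htra2, each with some exonic bases inside another gene. Some overlap was common, since 3050 of the 5343 genes that reached 50 CPM in CBTi-seq had no such base and the rest had some. Arf4, a small GTPase of the Golgi, had 1049 counts in CBTi-seq and 2 in the 3' library labelled control, with 17.7% of its exonic bases inside another gene. In its class, of up to 25% of exonic bases, 1.11% of genes had no 3' count. The 8 genes without such overlap and without a 3' count were Ado, Fam91a1, Lsm14b, Nadk2, Oard1, Pcyox1l, Sapcd2 and Vezf1, at 50.2 to 152.0 CPM in CBTi-seq, and 1 of them had no count in the 3' library labelled knock either.

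In the other direction, some genes had many 3' counts and hardly any in CBTi-seq, a larger share of them at long spans but a minority in every class of span. Among protein-coding genes at 50 CPM or more in the 3' library labelled control, ribosomal proteins left out, the share with 3 CBTi-seq counts or fewer was 2 of 644 below 10 kb (0.311%), 4 of 740 at 10 to 30 kb and 7 of 490 at 30 to 100 kb. It was 8 of 155 at 100 to 200 kb, 10 of 100 at 200 to 500 kb and 15 of 50 at 500 kb or more (30.0%, 17.9 to 44.6). From the shortest to the longest class the median CBTi-seq level was 179.8, 172.2, 134.3, 59.8, 42.2 and 6.09 CPM, against 151.5, 102.2, 82.1, 77.5, 79.7 and 91.7 CPM in the 3' library labelled control. The genes were chosen by their 3' level, so the 3' medians are held up by that choice. All 46 genes so found had counts in all 8 columns of the 3' library labelled control. So had all 2133 other genes chosen by the same 3' level, so these counts do not set the 46 apart. Of the 46, 13 spanned under 100 kb. Pde1c, a phosphodiesterase gene of 499.3 kb, had 1 count in CBTi-seq and 6450 in the 3' library labelled control, with 3' columns of 643.9 to 1144 CPM. Dmd, the muscle dystrophin gene of 2257 kb, had 1 count in CBTi-seq and 1872 in the 3' library labelled control, with 3' columns of 160.6 to 322.9 CPM. The glutamate receptor subunit Grik3 had 1 count in CBTi-seq and 2073 in the 3' library labelled control, and Nlgn1, a synaptic adhesion protein of 906 kb, had 0 and 1686. Grik3 and Nlgn1 are best known from nerve cells and Dmd from muscle. In the 3' library labelled knock, Pde1c was at 727 CPM, Dmd at 176.4 CPM, Grik3 at 515.5 CPM and Nlgn1 at 222.7 CPM. Trim30a, of an antiviral family, had 11 counts in CBTi-seq and 10542 in the 3' library labelled control (columns of 1006 to 1740 CPM). The median span of the 46 was 271 kb, and 18.99 kb for the other 2133, and exons made up a median of 3.98% and 19.9% of the span. Another gene lay within 35 of the 46 (76.1%) and within 640 of the 2133 (30.0%). A gene at 20 CPM or more in CBTi-seq with no 3' count lay within 4 of the 46 (8.70%) and 61 of the 2133 (2.86%). Genes of like span were not compared, so neither these shares nor the exon share can be told apart from the difference in span. Whether the 3' counts of the 46 come from introns was not tested, since the tables give 1 count per gene.

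The 221 genes at least 4-fold lower in CBTi-seq were sorted by class. There were 34 cytosolic ribosomal protein genes, 50 pseudogenes, 120 other protein-coding genes with a median span of 78.4 kb, and 17 others, beside a median span of 19.7 kb for all genes compared. As shares, 154 of 3896 protein-coding genes (3.95%), 49 of 121 processed pseudogenes (40.5%) and 11 of 23 long intergenic noncoding RNAs (47.8%) were at least 4-fold lower, beside 5.41% of all genes. By annotation, 3896 protein-coding genes had a median log2 ratio of 1.23, 121 processed pseudogenes -1.33 and 23 long intergenic noncoding RNAs -1.16. Without a level limit, among genes with at least 1 count by both methods, processed pseudogenes lay 0.12 above all genes. By longest annotated transcript, the median was -0.10 in the shortest quintile, up to 1569 bases, and then, from shorter to longer, 0.99, 1.47, 1.57 and 1.58. Over protein-coding genes with no exonic base inside another gene, ribosomal proteins left out, it was -0.005, 0.85, 1.37, 1.46 and 1.51. In the first of these 2 sets the median 3' level fell from 127 CPM in the shortest quintile to 42.1 CPM in the longest. Genes of like level were not compared. By the GC content of transcripts the medians stayed between 1.005 and 1.437.

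Among the 20186 genes present in both tables, CBTi-seq columns showed more genes with at least 1 count at equal total counts. CBTi-seq lists 20716 genes and the 3' libraries 55402 IDs, so the genes that could be counted were limited mainly by CBTi-seq. Genes without a CBTi-seq row, such as Cdh1 at 188 CPM in the 3' library labelled control, were left out. Which method shows more genes when these are included was not tested. Whether a 3' count is a read or a molecule is not stated, so depth in molecules was not matched. With each column thinned to 50000 counts, which left out 1 CBTi-seq column, a CBTi-seq column showed 8633 to 9351 genes (median 9077) and a 3' column 6052 to 6338 (median 6179). Among genes with no exonic base inside another gene the medians were 5019 in CBTi-seq and 3923.5 in the 3' library labelled control, and among genes wholly inside another gene 681 and 35.5. Without thinning the medians over all 20186 genes were 12856.5 in CBTi-seq and 10615 in the 3' library labelled control.

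Columns of CBTi-seq varied more than those of the 3' library labelled control. Over 1980 genes at 50 CPM or more in both, the median spread between columns beyond counting error, as a coefficient of variation, was 27.7% in CBTi-seq and 10.8% in the 3' library labelled control, and it was wider in CBTi-seq for 1724. The widest lists in CBTi-seq were the S phase genes, at 45.6% in CBTi-seq and 11.5% in the 3' library labelled control (6 genes), and the G2 and mitosis genes, at 44.4% and 10.5% (8 genes). Nuclear-encoded oxidative phosphorylation genes were at 19.8% in CBTi-seq and 7.73% in the 3' library labelled control (66 genes), and cytosolic ribosomal proteins at 26.4% and 7.10% (73 genes). The shallowest CBTi-seq column stood apart, with 41570 counts. All 10 named CBTi-seq genes of widest spread had their highest level in it, led by Sbno1, a helicase-like regulator, at 1828 CPM there and a median of 126.3 CPM over the 10 columns. Without that column the median spread over all genes in CBTi-seq was 21.2%, that of S phase genes 35.7% and that of G2 and mitosis genes 35.4%. In the 3' library labelled control the widest was Sil1, an exchange factor for Hspa5, with columns of 14.0 to 272.4 CPM, and 4 of the 10 widest genes had their highest level in the deepest column. Thinned to 50000 counts, the median over all genes was 19.3% in CBTi-seq and 4.74% in the 3' library labelled control.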

How the data were processed

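RNA of L929 cells was read in 1 CBTi-seq sample and 2 separate 3' libraries. The authors deposited tables of whole-number counts that carry no normalization, with symbols as gene names for CBTi-seq and Ensembl IDs for the 3' libraries. STAR 2.7.11b, Picard and FastQC stand in the submitters' processing notes, as do the builds GRCh38 and GRCm38, with no role for either. What counted the genes, how it used strand and reads with several matches, and whether 3' counts are reads or molecules are questions the sources used here leave unanswered.

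Of 55402 3' IDs, 55141 matched a symbol in GENCODE vM21 (GRCm38), from which all coordinates come, 1-based. The 20186 genes in both tables held 98.8% of the CBTi-seq control counts and 94.1% of those of the 3' library labelled control. The CBTi-seq table lists 20716 genes, so genes without a row there were not compared.

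From the deposited counts, sums over the columns of a method were scaled to the total of all its genes (CPM). Levels have exact Poisson and ratios exact conditional (Clopper-Pearson) 95% intervals. A gene at or under 3 counts by both methods got no ratio. Lists used members with a mean of at least 20 CPM, and counts of genes and named genes at least 50 CPM. With 1 sample per method no test was made, and a gene was counted as different by size alone, at 4-fold. Spread between columns is the coefficient of variation of CPM after the variance expected from counting was taken off. Copies were found by aligning pseudogene transcripts to protein-coding transcripts with BLAST 2.17.0 (identity of at least 97%, coverage of at least 90%).

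The genes, the 31 lists and the 9 marker lists were chosen with earlier results of these data known. Genes named were Rrm2, the reference genes and markers, the 10 highest levels by each method, the 10 largest ratios in each direction (unnamed models left out, genes without a 3' count apart), from each list the highest in CBTi-seq and at most 4 of largest ratio, and the 10 widest spreads by each method among genes of at least 100 CPM there. Some genes that this rule names are not reported here. A gene taken for its ratio needed counts in 25% of the columns where it was higher. The pseudogene copies and enclosing genes, the 46 genes with hardly any CBTi-seq count, and Lmna, Rps27rt, Rpl24, Rps10, Eif1, Uqcrq, Ndufc1, mt-Co3, Dhcr7, Aldoa, Mki67, Cks1b, Top2a, Dut, Myl6, S100a6, Dusp1, Cav1, Hif1a and the 8 genes without overlap or 3' count were named after their values were seen.

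Tools were R 4.3.3, Biopython 1.88, matplotlib 3.10.9 and, under Python 3.11.15, scipy 1.17.1, numpy 2.4.6 and pandas 2.3.3. The calculation was tested on simulated data, with counts drawn from the real levels and a set of genes altered by known ratios. Alternatives were TMM (edgeR 4.0.16) and median-of-ratios factors (DESeq2 1.42.0), other totals and level limits, leaving out columns, thinning, the knock-labelled columns, and a correction for identifier collisions.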

Additional observations from a re-analysis of the deposited data

How the results depend on the processing

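Scaling decided the sign of the typical gene. The level limit was applied to the rescaled levels, so the genes compared also changed. With TMM factors 338 genes were at least 4-fold higher in CBTi-seq and 670 lower, with a median log2 ratio of -0.39, and with median-of-ratios factors 318, 688 and -0.43. With totals that left out mitochondrially encoded and ribosomal protein genes, 347 were lower and the median was 0.86. The level limit moved counts of genes and most correlations and medians, while the shares among genes wholly inside others and among genes of 500 kb or more stayed within their intervals. Without one, but with at least 1 count by both methods, there were 4101 higher and 1107 lower genes with Spearman's rho 0.652 and Pearson's r 0.644. At 20 CPM there were 2877 and 390 with 0.329 and 0.260 and a median of 1.46. At 100 CPM there were 436 and 135, with r 0.0673 and a median of 0.64. With more than 3 counts by both methods r was 0.302, and at 2-fold there were 2236 higher and 480 lower genes. With the 3' library labelled knock in place of the one labelled control the median was 0.84. With knock-labelled columns of both methods it was 0.79, with rho 0.329 and r 0.230. Genes with no exonic base inside another gene, a choice made after seeing the data like all alternatives on overlap, copies and long genes, gave 605 higher and 147 lower, r 0.269 and a median of 0.93. Detection per column was counted among the genes in both tables only. Without thinning it was 12856.5 genes in CBTi-seq and 10615 in the 3' library labelled control. It was 7659.5 and 4999 at 30000 counts, and 10662 and 7747.5 at 100000. Spread between columns, thinned, was 19.3% in CBTi-seq and 4.74% in the 3' library labelled control, where it was 7.64% over genes of at least 200 CPM. Leaving out 1 column at a time, as added after seeing the data, it ran from 21.2% to 28.9% in CBTi-seq, lowest without the shallowest column, and from 9.75% to 10.8% in the 3' library labelled control. Leaving out single columns moved neither the counts of genes past 4-fold, nor the correlations, nor the median log2 ratio beyond their spread over columns. Detection had no such runs. The shares and the near-identical copies had only the one without the shallowest CBTi-seq column. Among genes with no exonic base inside another gene, the share without a 3' count was 0.0328% with the 3' library labelled knock. It was 0.0692% with knock-labelled columns of both methods and 0.972% at 20 CPM. At 20 CPM the median of the near-identical copies turned to 0.43.

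Relative to all genes, 967 list values moved by less than their spread over columns, 77 by more, and 7 changed sign. That spread is the standard deviation over single CBTi-seq columns, each set against the summed 3' columns. Many settings leave 1 column out of a sum, which can move a median only little, so the 967 do not measure robustness. A change of sign was counted only for lists and annotation classes at least 1 away from all genes, and for genes at least 4-fold apart. Nearer lists could change sign without being counted. Those 7 list values fell under the settings given next, and level limits and left-out columns changed the sign of no list so counted. Scaling moves all ratios alike, so these differences change with it only through the genes that pass the limit on rescaled levels. With the 3' library labelled knock the sign changed for chemokines and cytokines (-0.33), snoRNA hosts (0.35) and ribonucleotide reductase (-0.49), for processed transcripts among annotation classes (0.0365), and for the genes Ccl7 (-2.01), Gusb (-0.16), Neat1 (-0.15) and Snhg12 (1.499). With knock-labelled columns of both methods they were class I antigen presentation (-0.14), snoRNA hosts (0.31), ribonucleotide reductase (-0.20), processed transcripts (0.61), Ccl7 (-1.02), Neat1 (-0.29) and Snhg12 (1.27). Over genes with no exonic base inside another gene they were class I antigen presentation (-0.34) and processed transcripts (0.44). Without a level limit, but with at least 1 count by both methods, processed pseudogenes stood at 0.12 and antisense genes at -1.13. With more than 3 counts by both methods antisense genes stood at -1.22. Of the 10 antisense genes in the 50 CPM set, 5 had no 3' count, and both settings leave such genes out. Rpl35a summed with its copies stood at -0.38. The causes were not tested. No paired analysis was possible because each method has 1 control sample and nothing in the labels ties a numbered column of 1 table to the same number in the other. Depth limits genes near 3 counts, and 1 shallow CBTi-seq column could not be thinned to 50000 counts.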

Other observations

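Some unnamed gene models carried CBTi-seq counts that the 3' library labelled control did not show, although of 121 processed pseudogenes 28 were at least 4-fold higher and 49 lower in CBTi-seq, and of 10 antisense genes 6 and 3. Gm37376 (chr19:5801941-5802393, plus strand), a model inside Malat1 on the other strand, had 3315 counts in CBTi-seq and 0 in the 3' library labelled control, while Malat1 itself had 4306 and 10618. Gm45774 (chr8:94170748-94173412, minus strand), antisense to the metallothionein gene Mt2 with 28.1% of its exonic bases inside another gene, had 2658 counts in CBTi-seq and 0 in the 3' library labelled control, and Mt2 had 3765 and 4350. Gm13394, a processed pseudogene inside Cfap77, had 1938 counts in CBTi-seq and 0 in the 3' library labelled control. These genes were named after their values were seen, and without stated strand use, reads of a gene and of its antisense partner cannot be told apart.

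Metallothioneins, which bind zinc and copper, differed between paralogs. Mt1 was at 1089 CPM in CBTi-seq and 3753 CPM in the 3' library labelled control (log2 ratio -1.79), and Mt2 at 975 CPM and 616 CPM (0.66, which TMM scaling turns below 0).

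Further long neuronal genes among the 46 with hardly any CBTi-seq count were Ctnna2, of 1098 kb with 0 counts in CBTi-seq and 552 in the 3' library labelled control, and Lingo2, of 1245 kb with 1 and 384. Not all were long, since Mgarp spans 8.33 kb and had 0 counts in CBTi-seq and 591 in the 3' library labelled control.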
